A study of Mus musculus with 14 samples.

Results

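Lymphoid lineage genes were examined as a set of 37 mouse genes that act in B, T or NK cells or in the step from multipotent progenitors to those lineages. Their accessible chromatin was read from a table of 705361 regions measured by ATAC-seq, a method in which transposase cuts and tags DNA that is not packed away in nucleosomes. A region was taken where its mean deposited value over 14 libraries was at least 50 and where it overlapped the RefSeq bounds of a member gene extended by 10 kb on each side. This gave 178 regions, which are 0.301% of the 59189 regions of the table with a mean of at least 50. The 10 early and shared genes held 57 of these regions, the 9 B genes 41, the 13 T genes 67 and the 5 NK genes 13. The genes covered were 31 of 37, and Il7r, Ms4a1, Cd3e, Cd8a, Klrb1c and Ncr1 had no region at that level. The rule used levels and position but no difference between groups. The lowest member, a region of Satb1, lay at the threshold of 50, and the highest mean left out was 49.86.

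Lymphocytes arise from haematopoietic stem cells through progenitors that progressively lose myeloid and erythroid potential. Ikaros, E2A and related factors are active before commitment. Ebf1 and Pax5 then fix the B fate, Notch1 signalling with Tcf7, Gata3 and Bcl11b fixes the T fate, and Tbx21 and Eomes act in NK cells. Receptor genes such as Cd79a, Cd3e and Ncr1 are characteristic of the committed cells. Some lymphoid genes are known to be open or weakly transcribed in multipotent cells before any commitment, which is called lineage priming.

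The cells were LT-HSC (long-term haematopoietic stem cells) and MPP3 (multipotent progenitors known for a bias to myeloid output), sorted from bone marrow of C57BL/6J mice. Control donors are given as WT (Mx-Cre). Mutant donors carried Dnmt3a-flR878H/+, called Dnmt3a here, or Npm1-frt/+, called Npm1 here and Npm1c in sample titles, or both alleles together (Dnmt3a;Npm1). Each lethally irradiated CD45.1 recipient got 1000000 marrow cells of a young donor, poly(I:C) after 4 weeks, tamoxifen 4 weeks later, and was harvested after another 4 weeks. All groups, WT included, therefore share transplantation and both agents. Mx-Cre, named in the labels beside WT, is induced by poly(I:C) in many cell types and not in stem cells alone, and how far the alleles had recombined in the sorted cells was not measured here. The genotype labels of the mutant donors name no recombinase, so they do not say which agent acted on which allele. There were 2 libraries in each of 6 groups, while LT-HSC Dnmt3a and MPP3 Dnmt3a;Npm1 had 1 each. The labels do not say whether libraries of a group came from separate animals or pools, so p-values measure only the spread between these libraries.

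Library totals of the deposited values ran from 14683769 to 28748205, and 25.5% to 63.1% of a library's signal lay in the 59189 regions tested. The lowest shares were those of the LT-HSC Npm1 libraries, 29.4% and 25.5%, against 56.5% and 40.7% for LT-HSC WT, and the MPP3 Dnmt3a libraries followed at 31.8% and 37.1%. The correlation between the libraries of a group over tested regions ran from 0.543 for MPP3 Dnmt3a to 0.918 for MPP3 Npm1. The sorted populations differed at a few regions of known lineage genes. At a limma adjusted p under 0.05, 3 of 47 myeloid marker regions were higher in MPP3. Of 51 erythroid and megakaryocyte marker regions 1 was lower, and none of 88 stem cell marker regions passed, against 0.139% of all tested regions. The main region of Mpo, which encodes myeloperoxidase, was 1.52 higher in MPP3 on the log2 scale (SE 0.22, limma adjusted p = 0.0114), and the median over 47 regions of 9 myeloid marker genes was 0.49. Values named normalized below are deposited values divided by a factor for each library, found with the trimmed mean method known as TMM, and log2 differences are of the normalized value plus 4.

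The starts of the member genes ranged from open to closed, and the sequences at some of them are shown because base composition went with that range. RefSeq promoter sequences, 250 bases before to 50 bases after a start, were held for 30 of the 37 genes on build GRCm38.p6, the assembly that mm10 names. Capitals mark CpG dinucleotides, the site of DNA methylation by Dnmt3a and its relatives. Foxo1, Tcf3 and Gata3 had accessible starts rich in CpG, Pax5 had a start rich in CpG with little signal, and Il7r, Cd3d and Eomes had few CpG or an intermediate number.
Foxo1, chr3:52268087-52268386, plus strand: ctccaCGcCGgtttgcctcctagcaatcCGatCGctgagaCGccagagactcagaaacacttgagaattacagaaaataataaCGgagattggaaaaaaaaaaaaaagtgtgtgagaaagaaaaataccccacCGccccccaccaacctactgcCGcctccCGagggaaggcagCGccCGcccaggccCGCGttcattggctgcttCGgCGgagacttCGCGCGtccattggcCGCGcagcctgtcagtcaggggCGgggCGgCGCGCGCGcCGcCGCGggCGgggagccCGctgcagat
Tcf3, chr10:80433586-80433885, minus strand: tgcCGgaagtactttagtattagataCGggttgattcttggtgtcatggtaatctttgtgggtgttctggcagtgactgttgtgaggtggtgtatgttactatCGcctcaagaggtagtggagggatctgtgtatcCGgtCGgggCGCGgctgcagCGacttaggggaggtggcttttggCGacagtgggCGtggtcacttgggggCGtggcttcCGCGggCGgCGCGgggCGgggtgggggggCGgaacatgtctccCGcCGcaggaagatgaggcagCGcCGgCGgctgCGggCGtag
Gata3, chr2:9878551-9878850, minus strand: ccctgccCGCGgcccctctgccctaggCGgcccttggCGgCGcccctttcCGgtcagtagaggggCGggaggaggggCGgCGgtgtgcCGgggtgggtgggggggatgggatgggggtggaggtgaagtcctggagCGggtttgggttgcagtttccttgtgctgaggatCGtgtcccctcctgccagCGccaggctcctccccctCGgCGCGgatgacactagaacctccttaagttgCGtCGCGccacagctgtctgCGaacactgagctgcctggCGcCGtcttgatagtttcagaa
Pax5, chr4:44710645-44710944, minus strand: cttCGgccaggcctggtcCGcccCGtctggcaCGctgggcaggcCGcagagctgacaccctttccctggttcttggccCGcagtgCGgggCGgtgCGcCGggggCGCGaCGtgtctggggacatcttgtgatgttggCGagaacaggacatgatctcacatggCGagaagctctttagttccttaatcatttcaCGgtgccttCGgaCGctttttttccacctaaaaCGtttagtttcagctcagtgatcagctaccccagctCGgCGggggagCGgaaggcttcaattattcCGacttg
Eomes, chr9:118477939-118478238, plus strand: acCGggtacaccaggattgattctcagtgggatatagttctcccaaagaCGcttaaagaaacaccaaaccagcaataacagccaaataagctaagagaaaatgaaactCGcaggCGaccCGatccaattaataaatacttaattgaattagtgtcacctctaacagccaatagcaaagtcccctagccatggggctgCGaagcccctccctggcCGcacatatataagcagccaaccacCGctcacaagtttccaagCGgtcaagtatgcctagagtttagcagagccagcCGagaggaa
Il7r, chr15:9529827-9530126, minus strand: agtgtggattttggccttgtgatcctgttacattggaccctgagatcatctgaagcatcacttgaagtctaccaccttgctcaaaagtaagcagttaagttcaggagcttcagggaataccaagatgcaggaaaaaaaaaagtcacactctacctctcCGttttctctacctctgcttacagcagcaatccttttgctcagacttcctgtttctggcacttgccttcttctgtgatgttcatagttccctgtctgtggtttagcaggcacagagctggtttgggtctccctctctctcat
Cd3d, chr9:44981536-44981835, plus strand: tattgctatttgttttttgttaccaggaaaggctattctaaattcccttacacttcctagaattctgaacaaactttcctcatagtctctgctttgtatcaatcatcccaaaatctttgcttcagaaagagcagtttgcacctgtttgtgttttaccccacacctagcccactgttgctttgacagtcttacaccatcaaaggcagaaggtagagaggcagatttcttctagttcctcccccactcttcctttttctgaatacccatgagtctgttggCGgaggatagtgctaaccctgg

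The 300 bases held 31 CpG at Foxo1, 25 at Tcf3, 22 at Gata3 and 23 at Pax5, but 10 at Eomes and 1 at both Il7r and Cd3d. The mean deposited value per kb of the region at the start was 346.7 at Tcf3, 203.8 at Gata3 and 165.3 at Foxo1. It was 117.9 at Eomes, 72.8 at Pax5 and 63.1 at Il7r, and no deposited region lay over the start of Cd3d. Over the 30 genes the CpG count and the value per kb had a Spearman correlation of 0.75, given as a description across genes that share libraries and base composition. Over 17491 coding genes treated the same way it was 0.73, and the difference between these values was not tested. Of the 10 members with 15 or more CpG, 9 had a start region with a mean of at least 50, against 95.3% of such coding genes, and the exception was Pax5. Of the 20 members with fewer CpG, 7 did (35.0%), against 31.7% of coding genes.

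**Figure D1:**
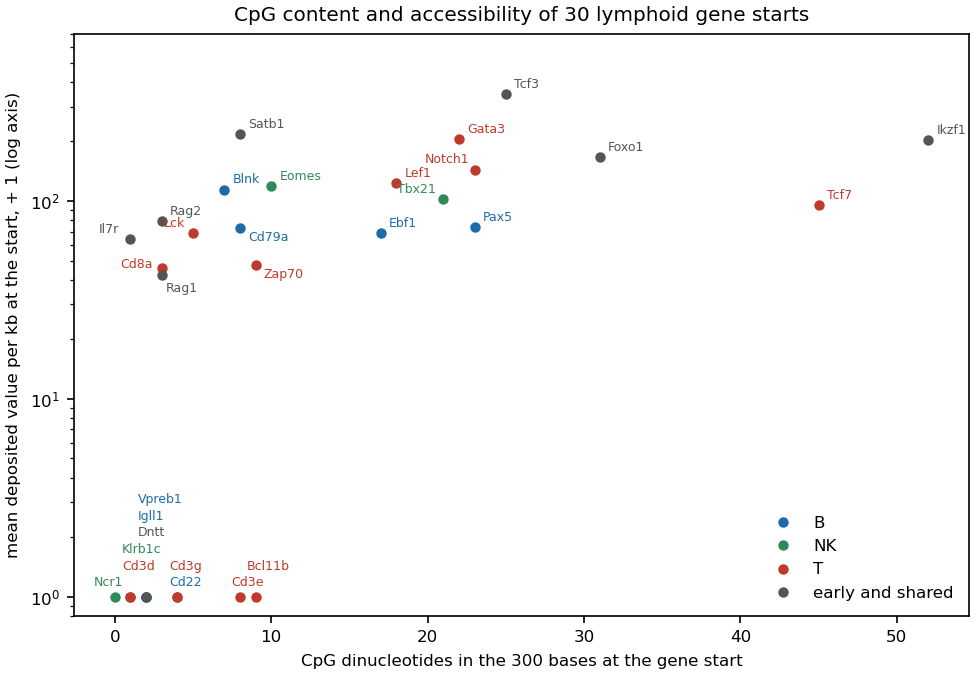
Each point is 1 of 30 lymphoid genes, with the CpG count of 300 bases at its start on the horizontal axis and the mean deposited value per kb of the region over that start, plus 1, on a log vertical axis. Starts with no deposited region lie at the bottom; Satb1 with 8 CpG and Blnk with 7 stand high for their CpG count, and Tcf7 with 45 CpG stands at 94.5 per kb.

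The same 30 sequences were searched on both strands for short motifs of factors that act in these lineages. The ETS motif GGAAGT occurred in 13 members (43.3%), against 25.2% of 17491 coding promoters of the same length; Il7r, Rag1, Ebf1, Cd79a, Cd3e and Tbx21 were among them. The RUNX motif TGTGGT occurred in 5 (16.7% against 15%), the TCF and LEF motif CTTTGA in 2 (6.7% against 14.6%) and the GATA motif AGATAA in 2 (6.7% against 9.8%). The EBF1 motif, TCCC and GGGA with 2 bases between, occurred in Foxo1 and Cd22 (6.7% against 0.9%). The motifs do not contain one another, and a match is a string of letters, not a bound site. Il7r, Rag1 and Klrb1c held both the ETS and the RUNX letters.

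Among early and shared genes, the starts of Tcf3, Satb1, Ikzf1 and Foxo1, which encode DNA-binding factors, were more accessible per kb than those of Il7r and the recombination genes; starts of Ets1 and Ikzf3 were not analysed here. At its own start, Tcf3, which encodes the E2A proteins, had a normalized value of 209.4 to 724.2 over the 7 LT-HSC libraries (median 530.5) and 376.2 to 808.0 over the 7 MPP3 libraries (median 575.4). Its 346.7 per kb stood at percentile 91.8 of coding starts. Satb1, a chromatin organiser needed in developing T cells, stood at 215.9 per kb (percentile 67.8) and Ikzf1, which encodes Ikaros, at 201.2 (percentile 64.6). Foxo1, a factor that activates Il7r and the Rag genes, had the value of 694.8 at its start spread over a wide region, which made 165.3 per kb (percentile 57.3). These 4 starts were open in every library: the lowest normalized value was 381.2 at Ikzf1, 479.5 at Foxo1, 249.9 at Satb1 and 209.4 at Tcf3. An LT-HSC Npm1 library gave the lowest value at Ikzf1, Satb1 and Tcf3.

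Rag1 and Rag2 encode the recombinase that assembles antigen receptor genes. The start of Rag1 had a mean deposited value of 33.0, below the rule, and that of Rag2 67.7. Both windows shared chr2:101628087-101629361, which overlaps Rag2 and over the start of a neighbouring gene, Iftap, with a normalized value of 100.7 to 255.9 in LT-HSC and 85.2 to 336.9 in MPP3. The cell types overlapped there. Dntt, the terminal transferase of early lymphocytes, had no deposited region at its start and its highest region, chr19:41030943-41031679, within the gene (72.8 to 248.7 in LT-HSC, 90.4 to 166.6 in MPP3). The start region of Il7r, the alpha chain of the IL-7 receptor, had a mean of 29.6 and normalized values of 2.3 to 82.8, with the median at 24.0 and the highest value in an LT-HSC Npm1 library. Ikzf3, the Ikaros relative Aiolos of later B cells, had 1 region inside the gene (mean 63.9), while its higher regions, 385.5 and 338.9, lay 4815 and 4687 bp outside its bounds, the second over the start of Zpbp2. Ets1, a founding member of the ETS family of factors, had all 8 of its regions inside the gene, the highest at 441.1. Ikzf1 had the most regions of any member, 19, of which 17 overlapped the gene and 4 had a mean of at least 100.

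In the B set, the genes of commitment had low starts, at 67.8 per kb for Ebf1 and 72.8 for Pax5, and the highest regions in the windows of Cd79a, Vpreb1 and Igll1 lay over the starts of neighbours. Ebf1 had a mean of 51.5 at its start, with normalized values of 12.7 to 83.0 in LT-HSC and 31.8 to 100.8 in MPP3, and its highest region, 106.5, lay 6135 bp outside the gene. Pax5 had 31.4 at its start. Its highest region, chr4:44702729-44704853 inside the gene, had normalized values of 282.3 to 391.1 in LT-HSC (median 329.2) and 130.6 to 291.6 in MPP3 (median 267.4), and 12 further Pax5 regions had means of 50.1 to 105.7. Cd79a, a signalling chain of the B cell receptor, had 97.5 at its start, where LT-HSC (59.1 to 139.4) and MPP3 (36.6 to 171.2) overlapped. The 2 highest regions in its window, 537.3 and 321.0, held the start of the neighbour Arhgef1, which encodes an exchange factor. Vpreb1 and Igll1, the surrogate light chain, had no region at their starts, and their shared highest region, 265.6, lay over the start of Top3b, a topoisomerase. Blnk, the adaptor of the B cell receptor, had 64.5 at its start, and for Cd22, an inhibitory receptor, no region lay over its start. Cd79b, the partner of Cd79a, had 2 of 6 regions in the gene, at 78.9 and 59.9. Ms4a1, which encodes CD20, reached 32.6 at most.

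In the T set, the starts of the regulators Notch1, Tcf7, Lef1 and Gata3 lay in member regions. They ran from 94.5 per kb at Tcf7 (percentile 43.2 of coding starts) to 203.8 at Gata3 (percentile 65.3). Cd8a had 44.9 per kb, and Bcl11b and the CD3 genes had no region over the start. Notch1 had a mean of 570.9 at its start (143.0 per kb), with normalized values of 302.9 to 726.9 in LT-HSC (median 498.7) and 341.3 to 646.6 in MPP3 (median 567.7). Tcf7, which encodes TCF1, had 192.4 at its start (140.7 to 220.6 in LT-HSC, 93.7 to 323.2 in MPP3) and 14 regions in all, 13 of them overlapping the gene. Lef1, its relative, had 216.8 and Gata3 180.6 at the start. Gata3 had 10 regions, of which chr2:9880934-9883137 and chr2:9879254-9880182 were the highest at 253.8 and 252.4. Bcl11b, which seals T commitment, had no region over the start used here and at most 67.6 nearby. The receptor genes Cd3e, Cd3d and Cd3g also had no region over their starts; Cd3e reached 40.8 in its window, with normalized values of 2.3 to 85.2 and a median of 44.2. The 1 region of Cd3d, chr9:44985989-44987412 over the far end of the gene, had 352.6. Cd8a reached 44.5, Zap70 had 51.0 at its start and Lck 63.2, these last 2 being kinases of T cell receptor signalling. In the window of Cd4 the highest region, 363.4, lay over the starts of P3h3 and Gm32404. The highest region overlapping the gene, 228.5, crossed its bound and also overlapped the neighbour Gpr162. The region wholly inside Cd4 had 53.6. The 2 regions of Thy1, a surface protein that is also found on stem cells at a low level, had 132.3 and 124.0.

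In the NK set, the starts of the regulators Eomes and Tbx21 lay in member regions, and those of the receptors Klrb1c and Ncr1 lay in no deposited region; the start of Il2rb was not analysed here. Eomes had a mean of 245.6 at its start (117.9 per kb, percentile 48.2 of coding starts) and Tbx21, which encodes T-bet, 155.4 (101.2 per kb, percentile 44.8). At Tbx21 the normalized value was 124.4 to 299.6 in LT-HSC and 48.3 to 294.0 in MPP3. Il2rb, the shared receptor chain for IL-2 and IL-15, had 119.0 in its highest region, where LT-HSC (79.5 to 197.0) and MPP3 (45.1 to 145.4) overlapped. Klrb1c, the NK1.1 antigen, had no region over its start and reached 40.5 in its window, with normalized values of 13.8 to 107.9 and a median of 32.6. Ncr1, the receptor NKp46, reached 13.4, with normalized values of 2.3 to 39.1 and a median of 8.8. The highest value of Klrb1c was in MPP3 Dnmt3a A and that of Ncr1 in LT-HSC WT B.

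**Figure D2:**
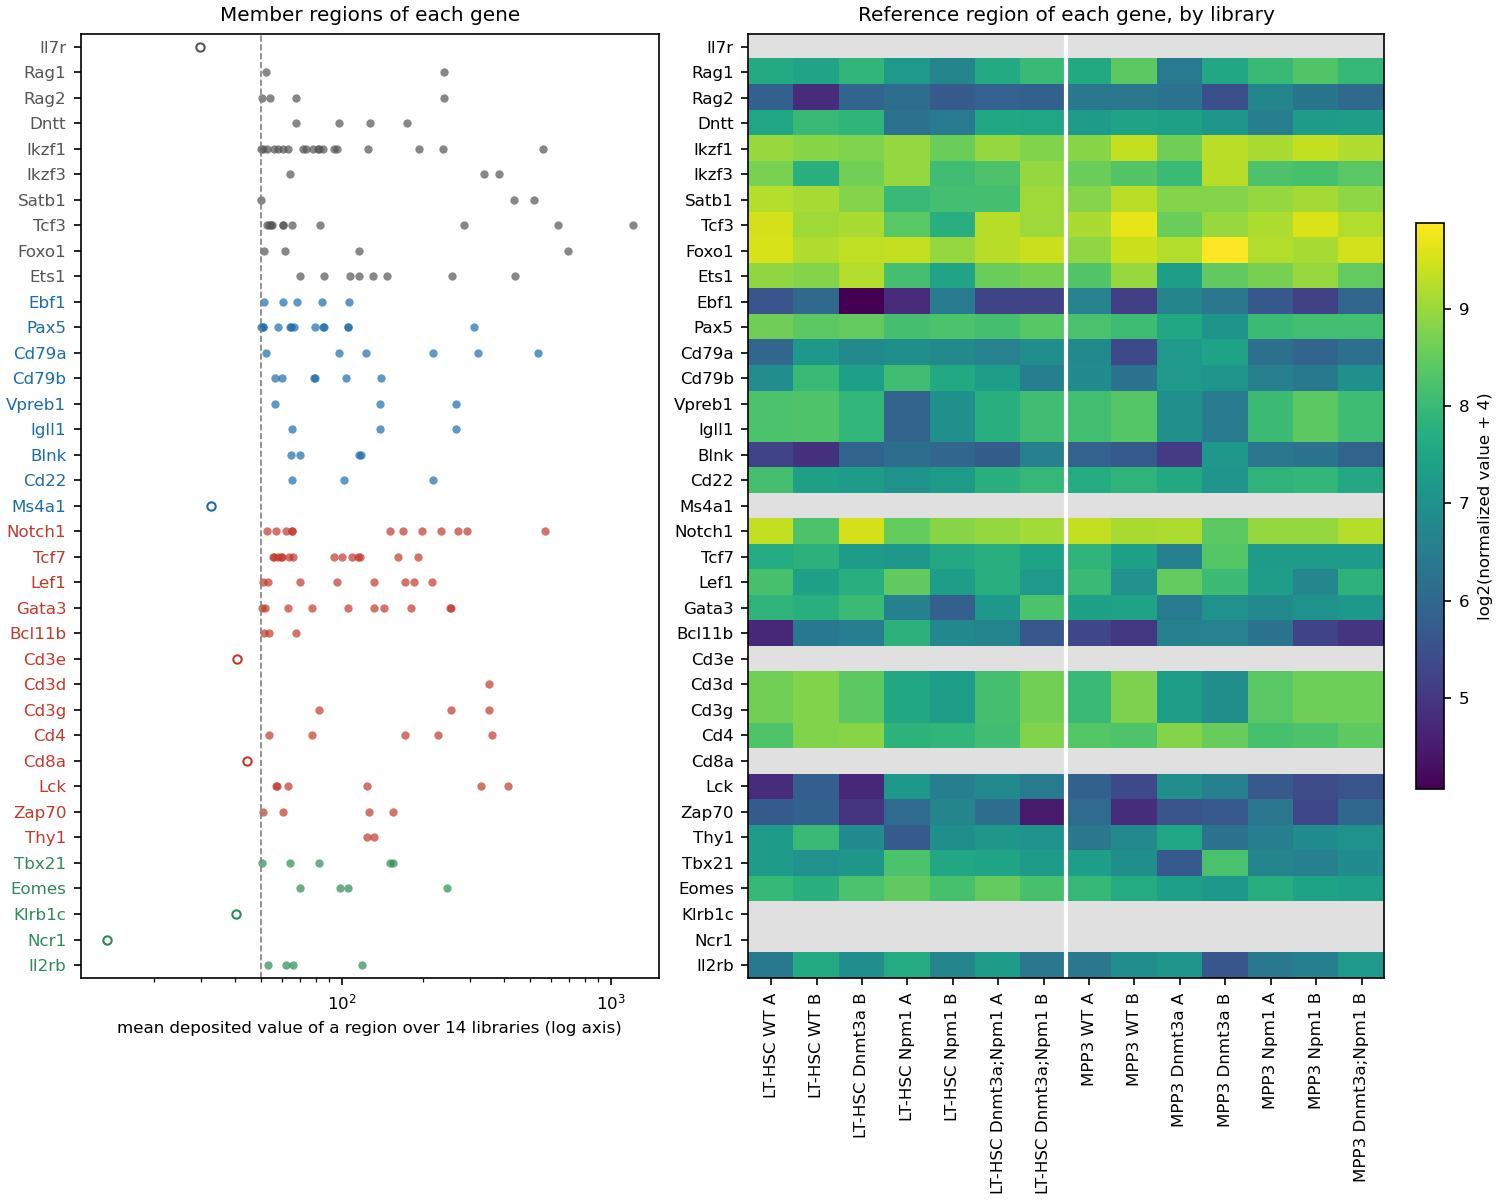
Left, every member region of each gene by its mean deposited value (log axis), with open circles for the highest region of the 6 genes that had none at 50 or more and a dashed line at 50. Right, the normalized value of each gene's reference region, the highest region over its start or otherwise the highest in its window, in each of the 14 libraries on a log2 colour scale (grey, none). Rows of Foxo1, Tcf3, Ikzf1, Satb1 and Notch1 are bright in all libraries, and Ebf1, Blnk, Bcl11b and Zap70 are dark.

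Whether stem cells and MPP3 differed at lymphoid genes was tested as MPP3 minus LT-HSC, with equal weight to the 4 genotypes. No member region was called of 178 at a limma adjusted p under 0.05, where 0.139% of all tested regions were (0.112% higher in MPP3, 0.027% lower). An unadjusted p under 0.05 was reached by 20 members, and by 12.5% of all tested regions. The 57 early and shared regions leaned to MPP3, with 38 above 0 and a median log2 difference of 0.12. The other sets leaned to LT-HSC: the median was -0.14 for B regions (17 of 41 above 0), -0.12 for T regions (23 of 67) and -0.23 for NK regions (3 of 13). Of the B regions 13 belonged to Pax5, and of the early and shared regions 19 belonged to Ikzf1, so neither median rests on independent regions. In WT alone all 13 Pax5 regions were lower in MPP3, while 14 of the 41 B regions were above 0. The median of all tested regions was 0.03, with 52.5% above 0, and among those that hold a gene start it was 0.11. These signs of the set medians held when libraries were scaled to their totals and after cyclic loess normalization. With library totals the medians were 0.22 for early, -0.03 for B, -0.02 for T and -0.12 for NK regions, so the B and T lean nearly vanished. No set was tested as a whole. Marker lists of other lineages moved too: the median was -0.35 over 51 erythroid and megakaryocyte regions (9 above 0) and -0.14 over 88 stem cell regions (31 above 0), and the part of cell makeup in the lymphoid values was not tested. In bulk libraries a smaller share of cells with a region open and less opening in each cell cannot be told apart. In WT alone, 2 libraries against 2, no region of the table was called (background 0%), and 9 members had an unadjusted p under 0.05, against 5.33% of all regions.

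The members nearest to a call were regulators. A region inside Ikzf1, chr11:11729798-11731661, had normalized values of 95.2 to 180.8 in LT-HSC (median 140.7) and 100.8 to 364.4 in MPP3 (median 304.3); the log2 difference was 0.86 (SE 0.23, limma adjusted p = 0.128). One MPP3 library, Dnmt3a A at 100.8, fell among the LT-HSC values, and without it the difference was 1.00 with an adjusted p of 0.0387. Inside Notch1, chr2:26483019-26484420 had 142.8 to 294.9 in LT-HSC and 235.4 to 431.5 in MPP3 (difference 0.77, SE 0.21, adjusted p = 0.128). They overlapped through the LT-HSC WT A library at 294.9. A second Notch1 region, chr2:26512920-26514278, lies 9098 bp beyond the gene and did not overlap between the cell types, with 131.5 to 202.0 in LT-HSC and 216.2 to 311.7 in MPP3 (difference 0.70, SE 0.20, adjusted p = 0.146).

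The start of Eomes went the other way. Its region chr9:118477961-118480044 had 211.6 to 356.5 in LT-HSC (median 290.3) and 139.7 to 242.1 in MPP3 (median 170.1), a difference of -0.70 (SE 0.20, limma adjusted p = 0.148). The overlap came from MPP3 WT A at 242.1 and LT-HSC WT B at 211.6, and every other LT-HSC library lay above every MPP3 library. In WT alone the cell types hardly differed there, with means of 218.6 in MPP3 and 228.0 in LT-HSC (log2 difference -0.06, SE 0.355). A region of Pax5, chr4:44704991-44706414, had 49.8 to 223.4 in LT-HSC and 34.9 to 92.6 in MPP3 (difference -0.84, SE 0.31, adjusted p = 0.276). A region of Ets1, chr9:32709315-32710718, had 94.8 to 228.4 in LT-HSC and 69.5 to 156.1 in MPP3 (difference -0.71, SE 0.27, adjusted p = 0.289). All 6 regions thus missed the threshold. Nearly all of the Eomes promoter printed above lies within its start region.

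**Figure D3:**
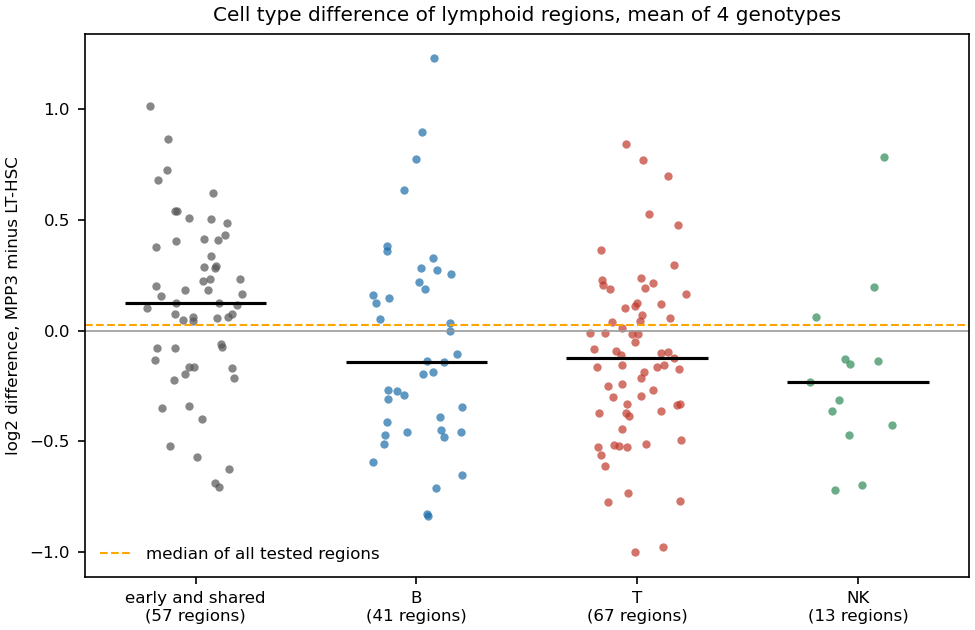
Each point is a member region, with the log2 difference of MPP3 minus LT-HSC over 4 genotypes on the vertical axis, by set; black bars are set medians and the dashed line is the median of all tested regions. The early and shared median of 0.12 lies above that line and the B, T and NK medians below it.

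The Npm1 allele was compared with WT in LT-HSC, 2 libraries against 2. Of 178 member regions, 9 were called and all were lower in Npm1 (5.06%), against 5.91% of all tested regions called in either direction, 4.52% lower and 1.4% higher. An unadjusted p under 0.05 was reached by 28 members, and by 23.3% of all tested regions. Of the 9, 3 belonged to the early and shared set (Tcf3 and Dntt), 2 to B (Vpreb1 with Igll1, and Blnk) and 4 to T (Gata3, Cd3d and Cd3g), with none in the NK set. All 9 had a mean deposited value of at least 100. Among the 78 members at that level 11.5% were called, and among all tested regions at that level 11.4%. Regions holding any gene start made up 5 of the 9, which is 16.1% of 31 such members, against 15.5% of all such regions. The members' share called was thus near the background on each count.

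The called regions at early and T genes were lower in both Npm1 libraries, a separation favoured by choosing them on this comparison. At the start of Tcf3, chr10:80432613-80434445, the WT libraries had 724.2 and 530.5 and the Npm1 libraries 334.3 and 209.4, a log2 difference of -1.22 (SE 0.35, limma adjusted p = 0.0419). A larger region in its window, chr10:80398324-80400697 over the start of Mbd3, a subunit of the NuRD complex, had 1329.6 and 1230.5 in WT and 657.1 and 272.6 in Npm1 (-1.58, SE 0.36, adjusted p = 0.0194). The start region of Gata3, chr2:9878366-9879252, holds the promoter printed above, and there WT had 225.4 and 211.6 and Npm1 94.3 and 53.3 (-1.57, SE 0.44, adjusted p = 0.0405). The adjoining region chr2:9879254-9880182 inside Gata3 had 216.1 and 292.8 in WT and 56.3 and 110.6 in Npm1 (-1.62, SE 0.40, adjusted p = 0.0247). Another high region of Gata3, chr2:9880934-9883137, did not separate the groups, with 311.1 and 168.5 in WT and 249.9 and 191.6 in Npm1. The start of Satb1 was next below the threshold, with 599.6 and 556.6 in WT and 249.9 and 278.5 in Npm1 (-1.12, SE 0.34, adjusted p = 0.0552).

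The remaining called regions lay at Cd3d, Blnk and Dntt and at neighbours of Cd3g, Vpreb1 and Igll1. The region of Cd3d, chr9:44985989-44987412, had 396.9 and 436.3 in WT and 182.1 and 158.0 in Npm1 (-1.27, SE 0.36, limma adjusted p = 0.0412). In the window of Cd3g, chr9:44965135-44966093 over the start of Ube4a, a ubiquitin ligase gene, had 252.0 and 281.8 in WT and 79.4 and 104.7 in Npm1 (-1.51, SE 0.42, adjusted p = 0.0380). Over the start of Top3b beside Vpreb1 and Igll1, chr16:16870424-16871522 had 296.0 and 309.9 in WT and 56.3 and 122.5 in Npm1 (-1.81, SE 0.40, adjusted p = 0.0184). Of the 9 regions, 3 therefore held the start of a gene outside the lymphoid set. Inside Blnk, chr19:40962926-40963589 had 100.8 and 163.5 in WT and 26.5 and 47.4 in Npm1 (-1.74, SE 0.51, adjusted p = 0.0441). Inside Dntt, chr19:41030943-41031679 had 176.1 and 248.7 in WT and 72.8 and 84.9 in Npm1 (-1.37, SE 0.41, adjusted p = 0.0491). In each of these regions both Npm1 libraries lay below both WT libraries. Choosing the regions on this comparison favours such a separation, so it adds no support to the calls.

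**Figure D4:**
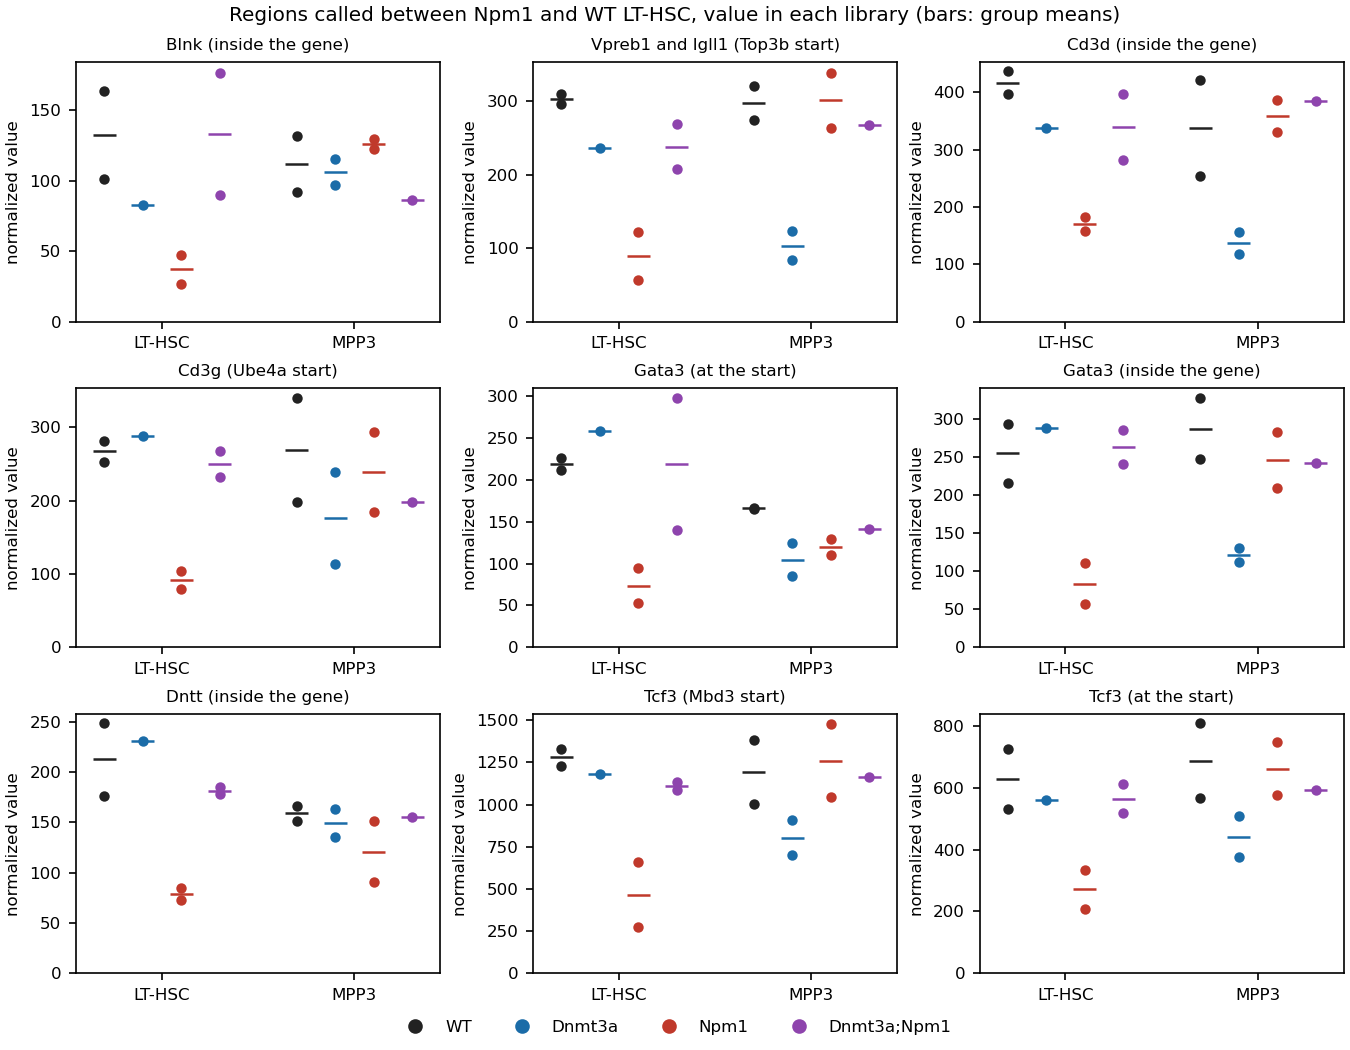
Normalized values of the 9 member regions called between Npm1 and WT LT-HSC, 1 panel each, with every library as a point and the group mean as a bar, by cell type and genotype. In each panel both LT-HSC Npm1 points lie below both LT-HSC WT points, a separation favoured by choosing the regions on this comparison. In MPP3 the log2 differences of Npm1 minus WT run from -0.46 to 0.19.

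Members of low signal moved the other way in the same comparison, without a call. Of all 34060 tested regions with a mean under 100, 1.84% were called, 594 higher in Npm1 and 33 lower. The 100 members with a mean under 100 had a median log2 difference of 0.49 (75 of 100 above 0), against 0.44 for all tested regions at that level. The 78 higher members had a median of -0.20, against -0.54 for all. The 3 members of smallest p among those that were higher had low values: chr16:16856574-16857486 beside Igll1 had 4.6 and 17.0 in WT and 125.8 and 57.3 in Npm1 (2.73, SE 0.88, limma adjusted p = 0.0656). A region of Ikzf1, chr11:11768911-11769748, had 34.2 and 15 in WT and 132.4 and 94.8 in Npm1 (2.11, adjusted p = 0.101). A region beside Bcl11b, chr12:108004692-108005827, had 22.0 and 81.2 in WT and 220.1 and 106.7 in Npm1 (1.74, adjusted p = 0.119). The Npm1 libraries that show this tilt by level also had the least of their signal within tested regions, 29.4% and 25.5%, and the part of that share in the result was not tested. After cyclic loess normalization no member was called, and the 9 differences ran from -1.70 at Blnk to -0.30 at the Mbd3 start and -0.20 at the Tcf3 start. With the share as a covariate none was called either, and they ran from -1.87 at Blnk to -0.59 at the Tcf3 start. The count was also 0 without either LT-HSC WT library, 1 without LT-HSC Npm1 B, and 3 without LT-HSC Npm1 A or either MPP3 Npm1 library. The set medians were 0.13 for early, 0.18 for B, -0.02 for T and 0.29 for NK regions; scaled to library totals they were -0.46, -0.40, -0.61 and -0.28, so their sign rests on the scaling.

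**Figure D5:**
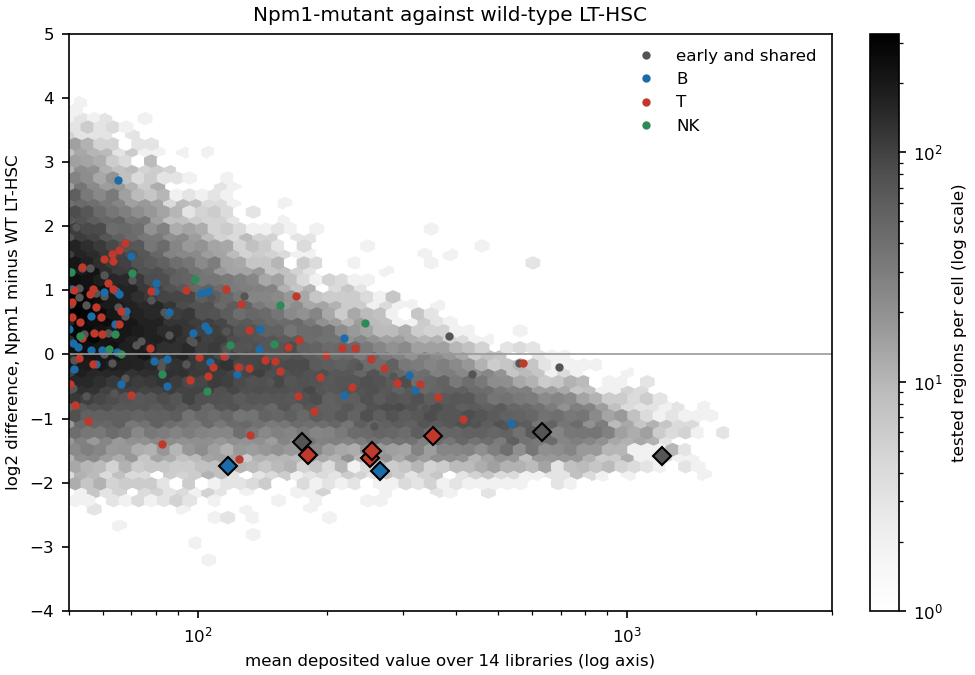
Log2 difference of Npm1 minus WT LT-HSC against the mean deposited value (log axis), with all tested regions as grey cells and the 178 member regions as coloured points by set. Diamonds are the 9 called regions; members follow the slope of the grey cloud, from a median of 0.49 under a mean of 100 to -0.20 above it.

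In MPP3 the Npm1 allele gave no call among the members or in the table (background 0%). No member had an unadjusted p under 0.05, against 0.115% of all regions. The spread was estimated over all 14 libraries together, while MPP3 Npm1 and MPP3 WT had the closest libraries, with correlations of 0.918 and 0.857. The absence of calls here therefore does not show an absence of effect. Over the Top3b start, MPP3 WT had 274.3 and 321.0 and MPP3 Npm1 263.7 and 338.8. For the Tcf3 start the log2 difference was -0.04 (SE 0.35) and at Gata3 -0.46 (SE 0.44). The difference between the effect in LT-HSC and the effect in MPP3 was called at no member and at no region of the table (background 0%), so the effects were not shown to differ; 12 members had an unadjusted p under 0.05, against 11.1% of all regions. The smallest adjusted p from limma was 0.315, at the Mbd3 start (-1.66, SE 0.51).

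In Dnmt3a;Npm1 LT-HSC the log2 differences from WT at the 9 regions ran from -0.35 at the Top3b start to 0.06 at the Gata3 region chr2:9879254-9880182. Against WT no member was called, where 0.00338% of all regions were (0.00169% higher, 0.00169% lower), and 7 members had an unadjusted p under 0.05, against 7.15% of all regions. At the Tcf3 start these libraries had 610.4 and 517.8, and at the Mbd3 start 1084.7 and 1134.4, close to or just below WT. At the Gata3 start they had 140.2 and 296.9, on both sides of WT, with 1 library well below it. Set against Npm1 alone, 1 member was called, higher in Dnmt3a;Npm1, against 1.7% of all regions (1.5% higher, 0.204% lower). It was chr2:9879254-9880182 in Gata3, with 240.7 and 285.6 in Dnmt3a;Npm1 (1.68, SE 0.40, limma adjusted p = 0.0408). The call was lost without either LT-HSC WT library, LT-HSC Npm1 B, LT-HSC Dnmt3a;Npm1 B or either MPP3 Npm1 library, while 8 members were called without LT-HSC Dnmt3a;Npm1 A and 2 to 4 without an MPP3 WT or MPP3 Dnmt3a library. Just outside the threshold were the Mbd3 start (1.38, SE 0.36, adjusted p = 0.0505) and chr1:36784613-36785730 beside Zap70. At the latter, Dnmt3a;Npm1 had 275.2 and 325.7, Npm1 87.7 and 83.0, and WT 117.0 and 91.3 (1.76 against Npm1, SE 0.46, adjusted p = 0.0511). The comparisons of Npm1 with WT and of Dnmt3a;Npm1 with Npm1 share the Npm1 libraries, so the Gata3 values in both are not independent. In the latter comparison the B regions had a median of -0.66 (10 of 41 above 0), against 0.01 for all tested regions. Only 16 of the 41 had a mean of at least 100, and 13 of the 41 belonged to Pax5. All tested regions with a mean under 100 had a median of -0.34, and members at that level -0.49. The B genes of the other pathway list described below had -0.28. Scaled to library totals the B median was -0.25, while that of all regions was 0.41.

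The Dnmt3a allele alone gave no call in either cell type, and none in the table (background 0% in both). In LT-HSC, with 1 library that was assumed to vary like the others, 9 members had an unadjusted p under 0.05, against 1.83% of all regions. They lay at Pax5, Tcf7, Il2rb and Vpreb1, and in each the Dnmt3a library was below both WT libraries. Choosing these regions on this comparison favours such a separation, so it adds no support. The smallest p was at a region 8396 bp outside Il2rb, chr15:78520017-78520664, with 0.8 in the Dnmt3a library against 29.5 and 104.3 in WT (-3.64, SE 1.11, limma adjusted p = 1). In MPP3, 24 members had an unadjusted p under 0.05, against 10.1% of all regions. The smallest p fell on regions also named above: the Top3b start had 123.5 and 83.3 in Dnmt3a against 274.3 and 321.0 in WT (-1.51, SE 0.40, adjusted p = 0.311), and the Cd3d region 156.1 and 118.3 against 254.7 and 421.8 (-1.25, SE 0.36, adjusted p = 0.331). Among MPP3 groups these libraries also had the smallest part of their signal in tested regions, 31.8% and 37.1%, and the part of this in the result was not tested. Dnmt3a;Npm1 in MPP3, again with 1 library, gave no call in the table (background 0%), with 1 member at an unadjusted p under 0.05, against 0.478% of all regions.

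Other genes of the lymphoid pathways, 48 in all, gave 287 regions at 43 genes and were described in the same way. None was called between MPP3 and LT-HSC (0.139% of all regions), where the median log2 difference was 0.10 for early, 0.06 for B, -0.05 for T and 0.04 for NK regions of this list. The B and NK medians had the opposite sign to those of the members. Between Npm1 and WT LT-HSC, 7 were called (2.44%, against 5.91% of all regions), 1 higher and 6 lower, with a median of -0.03 over the list; the genes named here were chosen after their values were seen. A region of Mef2c, a factor needed for lymphoid potential, chr13:83571822-83572767, had 389.3 and 460.3 in WT and 102.6 and 77.0 in Npm1 (-2.20, SE 0.39, limma adjusted p = 0.0126). A region of Flt3, the receptor that marks early lymphoid progenitors, chr5:147399902-147401351, had 405.5 and 373.1 in WT and 76.1 and 171.8 in Npm1 (-1.73, SE 0.42, adjusted p = 0.0242). The others that were lower belonged to Mef2c again, Bach2, Cr2 and Ptcra. The 1 higher region was at Bcl11a, chr11:24086916-24087648, with 19.1 and 9.0 in WT and 94.3 and 73.1 in Npm1 (2.33, SE 0.63, adjusted p = 0.0339). As among the members, the lower regions had high values and the higher region a low one. The Mef2c region was also the 1 call of this list between Dnmt3a;Npm1 and Npm1 LT-HSC (1.7% of all regions), at 188.9 and 414.8 in Dnmt3a;Npm1 (1.61, SE 0.39, adjusted p = 0.0433).

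Mature lymphocytes among the sorted cells were looked for in 13 receptor and signalling genes that mark them. Of these, Cd3e, Cd8a, Ms4a1, Klrb1c and Ncr1 had no region with a mean of at least 50. The summed normalized value of 33 regions at the other 8 genes was 5103 to 5613 in LT-HSC WT, 3997 to 4855 in LT-HSC Npm1, 4541 to 5125 in MPP3 WT and 4345 to 4938 in MPP3 Npm1. Some of the highest of these regions lay over neighbours. By mean deposited value they held starts of Arhgef1 (537.3 and 321.0), P3h3 with Gm32404 (363.4) and Ube4a (254.9), or overlapped Hdac1 (413.8). The sum is therefore not a measure of lymphocytes alone. The list is a part of the members, and its sum was lowest in an LT-HSC Npm1 library. Sums of other marker lists separated LT-HSC Npm1 from LT-HSC WT. The myeloid sum was 5465 to 6060 in Npm1 and at most 5003 in WT. It was 4343 to 4536 in LT-HSC Dnmt3a;Npm1 and 4645 in the LT-HSC Dnmt3a library, below both Npm1 libraries. The stem cell sum was 9776 to 11922 in Npm1 and 14588 to 14728 in WT. The erythroid and megakaryocyte sum was 8269 to 9762 in Npm1 and 12314 to 12473 in WT. In LT-HSC Dnmt3a;Npm1 these sums were 12340 to 14390 and 11092 to 11750, and in LT-HSC Dnmt3a 14609 and 11827, all above Npm1. All tested regions with a mean of at least 100 had a median log2 difference of -0.54 between Npm1 and WT LT-HSC. The part of that fall in the stem cell and erythroid sums was not tested. The part of other cells in the results was not tested.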

How the data were processed

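ATAC-seq was measured in 14 libraries of 8 groups. The submitters' processing notes name R 3.6.0, DiffBind 2.12.0, edgeR 3.26.4, HOMER 4.10 and mm10, without roles. The deposited values are a score per region and library, whole numbers that the authors had scaled by 1 factor per library and rounded, as judged from the values; how that factor was set is not given in the sources used here, so read depth is unknown and no counting interval is given. Regions with a mean of at least 50 (59189, 8.39% of the table) were divided by a TMM factor computed here, and log2 of that value plus 4 was tested with limma 3.58.1 (R 4.3.3, trended robust prior variance) over all 14 libraries. Calls are two-sided, with a Benjamini-Hochberg adjusted p under 0.05 over all tested regions, and the procedure was tested on simulated data.

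Gene bounds, starts and promoters came from RefSeq on GRCm38.p6, and all 37 members matched by symbol. Tables were handled with Python 3.11.15, pandas 2.3.3, numpy 2.4.6 and scipy 1.17.1, and drawn with matplotlib 3.10.9. Each gene is described by its highest region over its start, or else in its window. Named regions are all calls, plus the 3 with the smallest p on either side in MPP3 minus LT-HSC and in Npm1 minus WT LT-HSC, and the 13 lineage decision genes fixed as always described. The members, lists and tests were chosen with earlier results of these data known. The group of 1 MPP3 Dnmt3a;Npm1 library rests on its cell type label, since its title names none. Alternatives were other minimum means, pseudocounts and scalings, the signal share as a covariate, the replicate letter as a block, no extension of the gene bounds, no unplaced contigs, and each library left out.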

Additional observations from a re-analysis of the deposited data

How the results depend on the processing

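Between Npm1 and WT LT-HSC, 9 member regions were called. The count was 2 with a mean of at least 100 (1 of them higher, in Notch1), 4 with a mean of at least 10, 19 when scaled to library totals, and 0 after cyclic loess or with the signal share as a covariate. With library totals the median of all tested regions shifted to -0.57, and that of members to -0.48. Leaving out 1 library gave 0 to 11. Between Dnmt3a;Npm1 and Npm1 LT-HSC, 1 was called, with 0 at a mean of at least 100 or 10, 3 with a pseudocount of 16, 7 with library totals (all-region median 0.41), 0 after cyclic loess or with the covariate, and 0 to 8 with 1 library left out. The cause of these changes was not tested. Counts under the alternatives are given without the share of all tested regions called, so they do not show a change particular to the members. With 1 library left out, 0 to 1 was called between MPP3 and LT-HSC, 0 to 2 between Dnmt3a;Npm1 and WT LT-HSC (2 without LT-HSC Dnmt3a;Npm1 A), and 0 to 1 between Dnmt3a and WT MPP3 (1 without MPP3 Dnmt3a A). The other comparisons gave 0 under every alternative run. Replicate letters did not pair the libraries: over 15 pairs of groups the correlation of deviations ran from -0.295 to 0.431, with a median of -0.018. With the replicate block 6 regions were called between Npm1 and WT LT-HSC and 1 between Dnmt3a;Npm1 and Npm1. Over the 19 named differences no alternative changed a sign, but sizes moved: the Mbd3 start ran from -2.72 to -0.30 (called in 18 of 23 alternatives), the Tcf3 start from -2.35 to -0.20 (11), the Cd3d region from -2.40 to -0.56 (12) and the Dntt region from -2.46 to -0.84 (7). The region beside Igll1 was called, higher in Npm1, without MPP3 Dnmt3a A or B (adjusted p = 0.0449 and 0.0309). Leaving out a lone library gave no value for comparisons that need it. The number of libraries, 2 or 1 a group, limits every comparison.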
